A study of Homo sapiens with 24 samples.

Results

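The genes described here are the Wnt ligands, the proteins that secrete them, their receptors and secreted inhibitors, and the intracellular components and transcription factors of the pathway. They were chosen by gene name (the WNT, FZD, SFRP, DKK, LRP5 and LRP6, AXIN, DVL, TCF/LEF, ROR and NKD symbols with APC, CTNNB1, GSK3B, PORCN, WLS, RNF43, ZNRF3 and RYK), and 46 of the 14409 genes listed in any of the 3 deposited tables carried such a name. Each table held 44 of them, and 42 were in all 3 tables. NKD1 and WNT6 were not in the Tet-PTF1a table, and SFRP4 and SFRP5 were in that table alone. DKK2, DKK4, FZD10, LEF1, SFRP2, WNT1, WNT2, WNT3A, WNT5A, WNT7A, WNT8A, WNT8B, WNT9B and WNT16 were in no table.

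Polyadenylated RNA was sequenced from 3 stably transfected lines of Panc-1, an established human pancreatic ductal carcinoma line. Tet-One cells carried the empty doxycycline-inducible plasmid, Tet-MIST1 cells the rat MIST1 open reading frame and Tet-PTF1a cells the mouse PTF1a open reading frame, each myc-tagged. MIST1 and PTF1a are basic helix-loop-helix transcription factors of pancreatic acinar cells. Each line was sequenced as 4 Control libraries without doxycycline (Dox) and 4 Dox libraries, for which cells had 1 µg/ml for 72 h, so that the study held 24 libraries. All cells were grown in tetracycline-depleted serum after selection in puromycin, and clones had been screened for induction, so that each line may differ from the others by clone as well as by plasmid. Cells were at passage 32 in Tet-One and Tet-PTF1a and at passage 33 in Tet-MIST1.

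Wnt ligands are lipid-modified by the acyltransferase PORCN and carried to the cell surface by WLS. In the canonical branch they bind a Frizzled (FZD) receptor together with LRP5 or LRP6, Dishevelled (DVL) proteins then disable the complex of AXIN, APC and GSK3B that destroys beta-catenin (CTNNB1), and beta-catenin acts with TCF/LEF factors on target genes, whereas ROR1, ROR2 and RYK serve beta-catenin-independent branches. SFRP proteins bind the ligands, DKK1 blocks LRP5 and LRP6, and the ubiquitin ligases RNF43 and ZNRF3 remove Frizzled receptors from the surface. In the pancreas the pathway takes part in organ growth and in regeneration, and pancreatic carcinoma cells often express its ligands.

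The reads counted on listed genes ran from 17210989 to 43018494 per library, fewest in Tet-PTF1a. The epithelial keratins KRT8 and KRT18 and the mesenchymal filament gene VIM were abundant in every group, and the leukocyte and endothelial markers PTPRC, CD3E, PECAM1 and CDH5 were in no table. In Tet-PTF1a, 2 of 6 epithelial or ductal markers rose and 4 fell with Dox, and none of the 6 was called in Tet-MIST1 or Tet-One (FDR under 0.05, edgeR). Among all genes tested, 23.8% were induced and 24.4% repressed in Tet-PTF1a, 11.9% and 8.77% in Tet-MIST1, and 0% and 0% in Tet-One. In Tet-PTF1a, KRT8 fell from 1797 to 751 CPM, KRT18 from 1102 to 529, KRT19 from 269 to 131 and EPCAM from 56.8 to 50.2 CPM. CDH1 rose from 13.8 to 24.9 and KRT7 from 1.42 to 4.58 CPM (means, n = 4). VIM fell from 4716 to 3857 CPM, and the acinar enzyme gene PRSS1 rose from 0.0558 to 3.19 CPM. The part of these shifts in the changes of Wnt genes was not tested. The human PTF1A locus had at most 2 counts in a Tet-PTF1a Control library and 53 to 168 in the Dox libraries, although the induced open reading frame is from mouse. The human MIST1 locus, BHLHA15, was not in the Tet-One or Tet-MIST1 table, so it gave no check of the Tet-MIST1 labels. Tet-One Dox replicate 1 stood apart from the other 3 libraries of its group, with an SD of the log2 differences of 0.591 over all genes against 0.117 to 0.251 in the other libraries of all groups. Its deviation followed exon length (r = -0.58 across genes, which are not independent replicates), and that of Tet-MIST1 Dox replicate 1 did so too (r = -0.51). Replicates were described by the study as biological replicates.

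Promoters of 4 genes with a log2 fold change of at least 1 in size in Tet-PTF1a are shown as the 250 bases before the RefSeq start (GRCh38.p14, read on the strand of the gene), because both induced factors bind E boxes (CANNTG) and because TCF factors bind CTTTGA. That of SFRP1, which changed by as much, is not shown. Capitals mark these letters, searched on both strands. The DKK1 promoter is at chr10:52314031-52314280 on the plus strand, the SFRP4 promoter at chr7:37916818-37917067 and the SFRP5 promoter at chr10:97772000-97772249, both on the minus strand, and the WNT9A promoter at chr1:227947933-227948182 on the minus strand.
DKK1: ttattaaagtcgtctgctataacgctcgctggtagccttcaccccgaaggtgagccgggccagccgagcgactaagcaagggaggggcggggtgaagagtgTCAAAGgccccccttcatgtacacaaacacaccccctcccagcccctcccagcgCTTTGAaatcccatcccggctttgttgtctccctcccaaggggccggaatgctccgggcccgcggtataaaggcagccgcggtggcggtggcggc
SFRP4: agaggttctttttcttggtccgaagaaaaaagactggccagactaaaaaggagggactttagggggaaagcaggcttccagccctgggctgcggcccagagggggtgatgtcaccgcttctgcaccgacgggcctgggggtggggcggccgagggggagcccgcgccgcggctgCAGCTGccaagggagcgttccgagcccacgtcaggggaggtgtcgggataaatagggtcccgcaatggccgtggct
SFRP5: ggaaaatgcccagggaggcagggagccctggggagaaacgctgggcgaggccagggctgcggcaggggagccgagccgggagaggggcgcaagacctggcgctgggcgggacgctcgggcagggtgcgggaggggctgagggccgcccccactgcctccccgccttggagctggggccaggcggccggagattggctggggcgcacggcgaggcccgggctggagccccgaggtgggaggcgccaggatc
WNT9A: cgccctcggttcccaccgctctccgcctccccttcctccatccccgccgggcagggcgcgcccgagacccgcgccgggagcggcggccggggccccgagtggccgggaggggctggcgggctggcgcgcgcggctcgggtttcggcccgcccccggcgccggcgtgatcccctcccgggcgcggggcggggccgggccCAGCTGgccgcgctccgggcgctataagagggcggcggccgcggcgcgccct

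A RefSeq promoter was matched for 33 of the 46 genes. CANNTG was found in 12 of them (36.4%), against 53.0% of the 10505 listed genes with a matched promoter. The form CAGCTG, which is included in CANNTG, was found in 3 (SFRP4, WNT9A and ROR2), or 9.09% against 12.7% of all promoters, and CATCTG in 1 (DVL3), or 3.03% against 7.89%. CTTTGA was found in DKK1 alone, at 149 and 95 bases before the start, against 7.40% of all promoters. TGGGAAA and ATCAAAG were found in none, against 6.28% and 1.25% of all promoters. The SFRP5 promoter held none of the letters searched. The motifs and the promoters shown were chosen after the expression values had been seen, and a match of letters is no evidence of binding.

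Of the 44 genes tested in Tet-PTF1a, 12 were induced and 14 were repressed with Dox (FDR under 0.05 in the quasi-likelihood test of edgeR, adjusted over all genes tested). Among all 14053 genes tested in this line, 23.8% were induced and 24.4% were repressed. The median log2 fold change over the 44 genes was -0.07, against 0.00 over all genes, and the Control and Dox libraries did not overlap for 27 of the 44, against 42.3% of all genes. The largest fall (DKK1) and the largest rise (SFRP4) were those of secreted inhibitors, and all 5 inhibitors listed were called. SFRP4 passed the filter on low values only through its Dox libraries, so its call is no support for the group. Apart from SFRP4, the largest rise was that of the ligand WNT9A (1.26 on the log2 scale). Levels are in CPM scaled by TMM within a line, and log2 fold changes are Dox minus Control with a prior count of 2.

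DKK1, the antagonist of LRP5 and LRP6 (hg19 chromosome 10, 54074041 to 54077417, plus strand), was at 222, 214, 211 and 213 CPM in the 4 Tet-PTF1a Control libraries. In the 4 Dox libraries it was at 58.2, 54.0, 54.6 and 54.1 CPM. Every Dox library lay below every Control library, 3.89-fold lower on average, with a log2 fold change of -1.96 ± 0.03 (SE, FDR 3.04e-45, edgeR). SFRP1, which binds Wnt ligands, fell from 23.4, 23.3, 23.4 and 26.5 CPM to 10.6, 10.7, 11.5 and 12.0 CPM, which is -1.10 ± 0.06 on the log2 scale (FDR 1.37e-21, edgeR). DKK3, a divergent Dickkopf protein, fell from 77.7 ± 2.24 to 53.4 ± 1.85 CPM (SD, n = 4), with a log2 fold change of -0.54 ± 0.03 (FDR 1.87e-19, edgeR).

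The 2 inhibitors that rose were low in Control. SFRP4 (hg19 chromosome 7, 37945535 to 37956525, minus strand) was at 0.448, 0.448, 0.397 and 0.289 CPM in the Control libraries and at 4.02, 4.38, 5.10 and 4.78 CPM in the Dox libraries. The groups were far apart, 11.6-fold on average, with a log2 fold change of 3.33 ± 0.18 (SE, FDR 8.03e-23, edgeR). Its counts ran from 8 to 157 per library, and it passed the filter on low values only through its Dox libraries. SFRP5 (hg19 chromosome 10, 99526508 to 99531756, minus strand) rose from 2.81, 2.18, 2.43 and 2.23 CPM to 6.14, 4.57, 4.94 and 6.49 CPM, with a log2 fold change of 1.17 ± 0.12 (FDR 1.04e-11, edgeR). Per exon length, SFRP4 and SFRP5 stayed below the inhibitors that fell, at 1.54 and 2.94 RPKM with Dox against 30.6 RPKM for DKK1 and 17.9 RPKM for DKK3, although SFRP5 was above SFRP1 (2.51 RPKM). These are levels of separate genes in the same Dox libraries and were not tested against each other. In bulk RNA, fewer cells expressing a gene and less RNA per cell cannot be told apart.

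**Figure D1:**
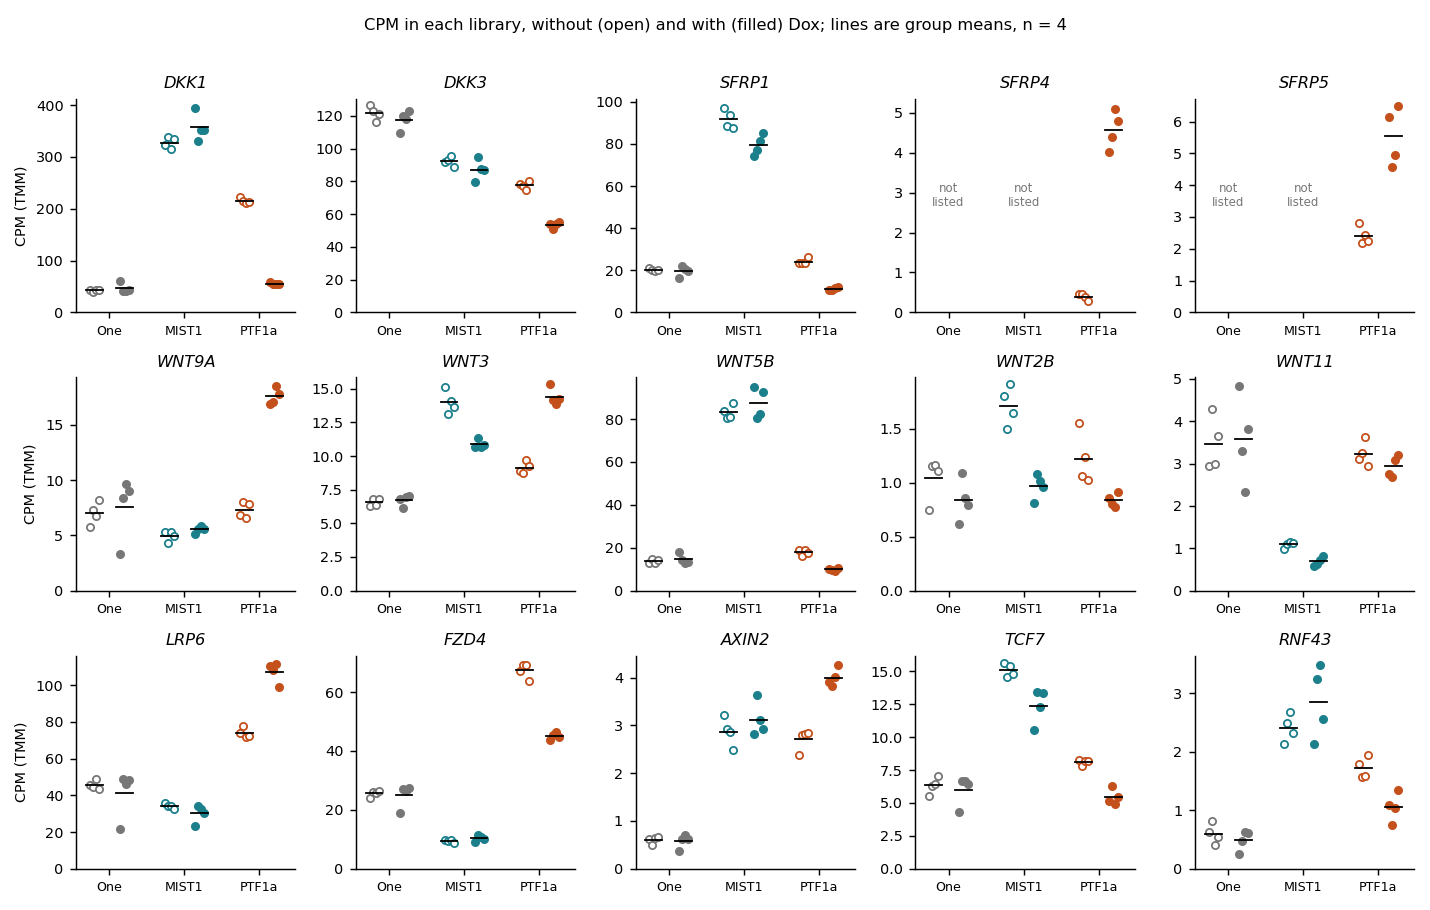
CPM (TMM, within each line) of 15 Wnt genes in each of the 24 libraries, without Dox (open) and with Dox (filled), with group means as lines (n = 4); SFRP4 and SFRP5 were not listed in the Tet-One and Tet-MIST1 tables. DKK1 fell from about 215 to 55.2 CPM on average in Tet-PTF1a and stayed between 315 and 393 CPM in Tet-MIST1.

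Among the ligands in Tet-PTF1a, 2 of 9 were induced and 3 were repressed, against 23.8% and 24.4% of all genes. WNT9A (hg19 chromosome 1, 228109165 to 228135676, minus strand) rose from 6.81, 8.01, 6.60 and 7.85 CPM to 16.9, 17.1, 18.5 and 17.8 CPM, 2.41-fold, with a log2 fold change of 1.26 ± 0.07 (FDR 9.58e-22, edgeR). WNT3, a canonical ligand, rose from 8.89, 8.74, 9.73 and 9.24 CPM to 15.4, 14.1, 13.9 and 14.2 CPM, with a log2 fold change of 0.65 ± 0.07 (FDR 5.11e-12, edgeR). WNT5B, a ligand mostly linked to beta-catenin-independent signalling, fell from 18.9, 16.2, 18.9 and 17.4 CPM to 10.2, 9.66, 8.91 and 10.6 CPM, with a log2 fold change of -0.85 ± 0.07 (FDR 7.27e-16, edgeR). No Dox library overlapped a Control library for 6 of the 9 ligands, these 3 among them, against 42.3% of all genes.

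WNT10B fell from 3.09 ± 0.289 to 2.27 ± 0.221 CPM (log2 fold change -0.44 ± 0.13, FDR 0.00438, edgeR). WNT2B was near the detection filter, at 1.56, 1.06, 1.24 and 1.02 CPM in Control and 0.861, 0.801, 0.773 and 0.914 CPM with Dox (log2 fold change -0.53 ± 0.21, FDR 0.0253, edgeR). Its call rested on Control replicate 1, which was the highest, and without it the FDR was 0.209. It was also lost without Dox replicate 2 (FDR 0.0556) or Dox replicate 3 (FDR 0.0576) and with the Wald test of DESeq2 (FDR 0.0981). WNT7B, at 32.4 ± 0.921 CPM in Control the most abundant ligand in Tet-PTF1a by RPKM (8.29), was at 33.9 ± 0.436 CPM with Dox and did not pass the test (FDR 0.153). WNT4, WNT10A and WNT11 did not pass it either, with log2 fold changes from -0.10 to 0.21. WLS fell from 40.1 ± 1.17 to 33.6 ± 0.635 CPM (log2 fold change -0.26 ± 0.04, FDR 3.78e-07, edgeR), and PORCN was at 5.98 ± 0.464 and 5.25 ± 0.259 CPM (FDR 0.0724).

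Of the 14 receptors and co-receptors, 3 were induced and 3 were repressed in Tet-PTF1a, near the shares of all genes (23.8% and 24.4%). The co-receptor LRP6 rose from 74.1, 77.5, 71.9 and 72.5 CPM to 110, 108, 112 and 99.0 CPM, with a log2 fold change of 0.53 ± 0.03 (FDR 1.92e-17, edgeR). Its paralog LRP5 fell from 216 ± 4.36 to 186 ± 3.24 CPM, which is -0.21 ± 0.02 on the log2 scale (FDR 1.18e-10, edgeR). FZD4 fell from 67.3, 69.3, 69.0 and 63.8 CPM to 43.9, 45.3, 46.5 and 44.6 CPM, with a log2 fold change of -0.57 ± 0.04 (FDR 2.02e-19, edgeR). The exons of FZD4 overlap those of PRSS23 on the opposite strand by 1399 bases (18.9% of their length), and without a stated use of strand, reads from the overlap cannot be assigned to either gene. FZD2 fell from 31.4 ± 1.04 to 26.7 ± 1.50 CPM (log2 fold change -0.22 ± 0.05, FDR 7.16e-05, edgeR). FZD3 rose from 9.10 ± 0.427 to 11.3 ± 0.691 CPM (0.30 ± 0.07, FDR 0.00031), and ROR1 from 4.11 ± 0.506 to 5.26 ± 0.612 CPM (0.34 ± 0.10, FDR 0.00566). RYK and FZD6, 2 of the most abundant receptor genes by RPKM (56.5 and 23.3 in Control), had log2 fold changes of 0.01 and 0.04 and did not pass the test.

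Inside the cell, all 3 Dishevelled genes were called in Tet-PTF1a but in different directions. Among all genes, 23.8% were called induced and 24.4% repressed in this line. DVL1 fell from 110 ± 1.05 to 92.0 ± 1.25 CPM (log2 fold change -0.26 ± 0.03, FDR 2.93e-11, edgeR) and DVL2 from 70.6 ± 1.99 to 53.4 ± 1.47 CPM (-0.40 ± 0.03, FDR 1.72e-14), whereas DVL3 rose from 111 ± 2.65 to 133 ± 3.12 CPM (0.27 ± 0.03, FDR 7.80e-12). AXIN2, a scaffold of the destruction complex that is also a widely used beta-catenin target, rose from 2.38, 2.80, 2.83 and 2.83 CPM to 3.91, 3.82, 4.02 and 4.26 CPM, with a log2 fold change of 0.58 ± 0.12 (FDR 3.54e-05, edgeR). APC rose from 72.6 ± 2.79 to 82.6 ± 6.14 CPM, with groups that overlapped (0.18 ± 0.04, FDR 0.00154, edgeR), and CTNNB1 rose from 319 ± 4.53 to 344 ± 2.97 CPM (0.11 ± 0.02, FDR 2.61e-05). AXIN1 and GSK3B did not pass the test, at log2 fold changes of 0.01 and -0.03.

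TCF7, a TCF/LEF factor that is also used as a target gene, fell from 8.25, 7.84, 8.19 and 8.21 CPM to 5.11, 6.31, 4.89 and 5.45 CPM, with a log2 fold change of -0.57 ± 0.09 (FDR 1.51e-07, edgeR). The more abundant TCF7L2, at 66.8 ± 4.07 CPM in Control and 65.9 ± 2.53 CPM with Dox, and TCF7L1 did not pass the test. The ligases that remove Frizzled receptors moved apart. RNF43 fell from 1.79, 1.57, 1.59 and 1.94 CPM to 1.09, 0.754, 1.03 and 1.34 CPM (log2 fold change -0.66 ± 0.19, FDR 0.00150, edgeR), and ZNRF3 rose from 17.5 ± 0.414 to 21.3 ± 1.21 CPM (0.28 ± 0.05, FDR 1.69e-05).

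**Figure D2:**
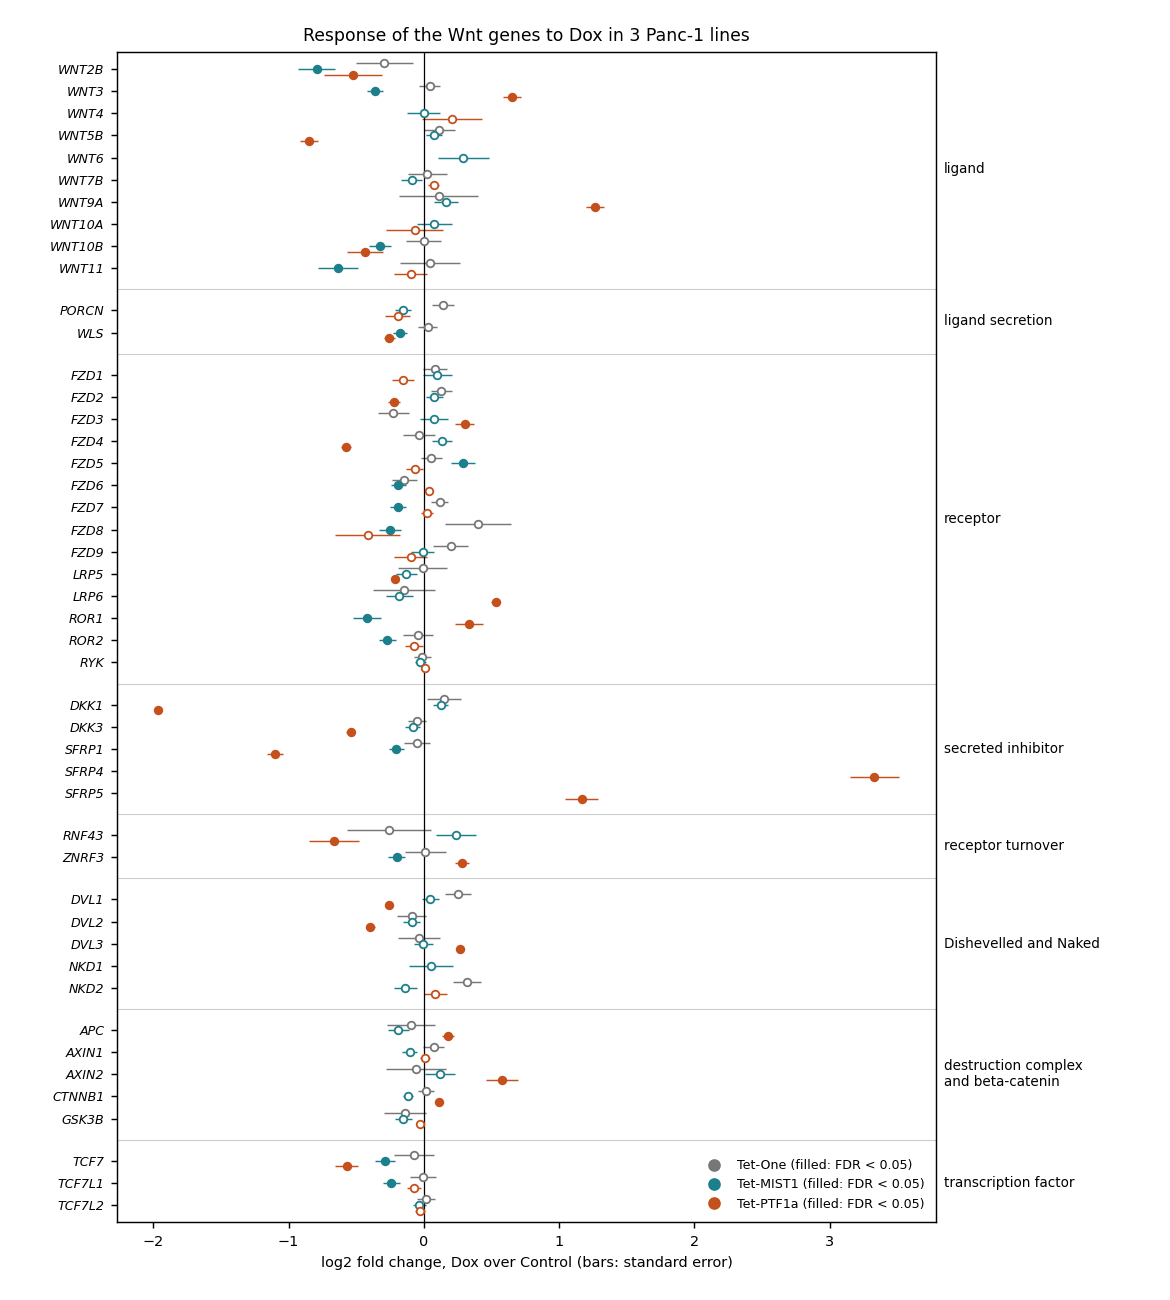
Log2 fold change (Dox over Control, with its standard error) of each Wnt gene tested, grouped by role, in the 3 lines; filled points have FDR under 0.05 in edgeR. The points of Tet-PTF1a run from -1.96 (DKK1) to 3.33 (SFRP4), those of Tet-MIST1 from -0.79 (WNT2B) to 0.29, and no point of Tet-One is filled. SFRP4 passed the filter on low values only through its Dox libraries.

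In Tet-MIST1 the calls fell mostly on one side. Of the 44 genes tested, 14 were repressed and 1 was induced, against 8.77% repressed and 11.9% induced among all 13623 genes tested in this line. The median log2 fold change was -0.10, against 0.00 over all genes, 14 of the 44 were higher with Dox, against 49.1% of all genes, and the groups did not overlap for 13, against 26.9% of all genes. All changes were under 1 on the log2 scale. The number of repressed genes rested on single libraries, at 5 without Control replicate 1, 6 without Control replicate 3, 8 without Dox replicate 4 and 9 without Dox replicate 3.

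The ligands WNT2B and WNT11 changed most in Tet-MIST1. WNT2B fell from 1.81, 1.50, 1.91 and 1.65 CPM to 0.813, 1.09, 1.02 and 0.965 CPM, with a log2 fold change of -0.79 ± 0.14 (FDR 0.00190, edgeR). WNT11 fell from 0.993, 1.10, 1.16 and 1.12 CPM to 0.585, 0.636, 0.723 and 0.814 CPM, with a log2 fold change of -0.64 ± 0.15 (FDR 0.00922, edgeR), and its call was lost with all 24 libraries in 1 fit (FDR 0.0577). Both genes were low, with at most 81 counts per library, and their groups did not overlap. WNT3 fell from 15.1, 13.1, 14.1 and 13.7 CPM to 10.6, 11.3, 10.7 and 10.8 CPM, with a log2 fold change of -0.36 ± 0.06 (FDR 0.00199, edgeR), and WNT10B fell by 0.32 on the log2 scale. WNT5B, the most abundant ligand in this line by RPKM (36.0 in Control), was at 83.1 ± 3.17 CPM in Control and 87.7 ± 7.17 CPM with Dox and did not pass the test.

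Of the 14 receptors in Tet-MIST1, 5 were repressed (ROR1, ROR2, FZD6, FZD7 and FZD8), against 8.77% of all genes. Their log2 fold changes ran from -0.42 to -0.19. ROR1 fell from 2.63 ± 0.110 to 1.95 ± 0.195 CPM (-0.42 ± 0.10, FDR 0.0127, edgeR), FZD6 from 53.0 ± 1.24 to 46.5 ± 3.13 CPM (-0.19 ± 0.05, FDR 0.0293) and FZD7 from 39.3 ± 1.37 to 34.4 ± 2.40 CPM (-0.19 ± 0.06, FDR 0.0360), the last with groups that overlapped. FZD5 was the induced gene, at 5.80, 4.85, 5.08 and 5.29 CPM in Control and 5.64, 6.86, 6.93 and 6.24 CPM with Dox (log2 fold change 0.29 ± 0.09, FDR 0.0385, edgeR), and its Dox replicate 1 lay within the Control range. No gene was called induced without Control replicate 2, 3 or 4 or without Dox replicate 3 or 4, and 2 were without Dox replicate 1. SFRP1, TCF7, TCF7L1, WLS and ZNRF3 fell by 0.21, 0.29, 0.24, 0.18 and 0.20 on the log2 scale. DKK1 was at 322, 338, 315 and 335 CPM in Control and 393, 330, 352 and 352 CPM with Dox, and the groups overlapped (log2 fold change 0.12, FDR 0.128). None of the 5 genes of the destruction complex and beta-catenin group and none of the 5 Dishevelled and Naked genes passed the test, and CTNNB1 was nearest (log2 fold change -0.12, FDR 0.0514).

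In Tet-One, 39 of the 44 listed genes passed the filter and none was called, against 0% induced and 0% repressed among all 13428 genes tested. WNT4, WNT6, WNT10A, ROR1 and NKD1 were below the filter. The smallest FDR over all genes was 0.897, and 401 genes had an unadjusted p under 0.05. Log2 fold changes ran from -0.29 (WNT2B) to 0.40 (FZD8). The biological coefficient of variation was 14.4%, whereas Tet-MIST1 had 6.58% and Tet-PTF1a had 2.80%, and the SE of the log2 fold change of CTNNB1, for example, was 0.06 in Tet-One against 0.02 in Tet-PTF1a. LRP6 was at 45.8, 44.4, 48.6 and 43.6 CPM in Tet-One Control and at 21.5, 49.1, 46.0 and 48.4 CPM with Dox, the low value being that of the library that stood apart.

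The responses of lines were compared as an interaction of line and Dox. Its FDR rests on the spread between libraries of the same line. The induced factor and the clone cannot be told apart in these differences, nor can passage where Tet-MIST1 is compared. Tet-PTF1a differed from Tet-One for 11 of 42 genes, against 12.8% of all genes, and for 19 without Tet-One Dox replicate 1. The difference in log2 fold change was -2.11 ± 0.13 for DKK1 (FDR 2.77e-08, edgeR), -1.05 ± 0.12 for SFRP1, -0.97 ± 0.14 for WNT5B, -0.54 ± 0.13 for FZD4, -0.51 ± 0.10 for DVL1, -0.49 ± 0.07 for DKK3, -0.36 ± 0.09 for FZD2 and -0.28 ± 0.07 for WLS. It was 0.61 ± 0.09 for WNT3, 0.53 ± 0.13 for FZD3 and 1.15 ± 0.32 for WNT9A (FDR 0.0243, edgeR). The call of WNT9A was lost without Tet-PTF1a Control replicate 1 (FDR 0.0533) or replicate 3 (FDR 0.0526) and with the exon length trend removed (FDR 0.0541). The difference of FZD3 fell to 0.36 with the exon length trend removed (FDR 0.214) and to 0.34 with length and GC trends removed (FDR 0.160), and neither was a call. The call of WLS was lost with library size only (FDR 0.106) and with the replicate block (FDR 0.0695). Uncalled changes of Tet-One in the opposite direction made part of some differences, with 0.25 for DVL1, -0.22 for FZD3 and 0.13 for FZD2. Across the alternatives the difference of DVL1 was as small as -0.29, and its call was kept. SFRP4 and SFRP5 could not be compared between lines. The remaining genes called within Tet-PTF1a were not shown to respond differently from Tet-One in the main fit. They were LRP6, AXIN2, TCF7, DVL2, DVL3, RNF43, ZNRF3, CTNNB1, APC, LRP5, ROR1, WNT10B and WNT2B (FDR from 0.0705 for AXIN2 to 0.642 for WNT2B, edgeR).

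Tet-MIST1 differed from Tet-One for 1 of 44 genes, against 1.66% of all genes. This was WNT3, with a difference of -0.41 ± 0.09 (FDR 0.0266, edgeR). The call was lost in 10 of the 16 fits that left out 1 library, with an FDR of at most 0.0688, and without Tet-One Dox replicate 1 there were 5 calls. The other 13 repressed genes of Tet-MIST1 were therefore not shown to respond differently from Tet-One.

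Tet-PTF1a and Tet-MIST1 differed for 22 of 42 genes, against 36.4% of all genes, with 12 responses higher and 10 lower in Tet-PTF1a. For WNT3, ROR1 and ZNRF3, the fall in Tet-MIST1 and the rise in Tet-PTF1a were each called, and the differences were 1.02 ± 0.08, 0.77 ± 0.15 and 0.49 ± 0.08. The difference was -2.07 ± 0.07 for DKK1 (FDR 1.78e-15, edgeR), 1.11 ± 0.11 for WNT9A, -0.91 ± 0.10 for WNT5B, -0.90 ± 0.25 for RNF43, -0.88 ± 0.08 for SFRP1, 0.73 ± 0.11 for LRP6 and -0.70 ± 0.08 for FZD4. It was 0.54 ± 0.18 for WNT11, 0.47 ± 0.15 for AXIN2, -0.45 ± 0.06 for DKK3 and 0.38 ± 0.09 for APC. It was -0.34 ± 0.12 for FZD5 (FDR 0.0272, edgeR), -0.30 ± 0.07 for DVL1, -0.30 ± 0.07 for DVL2, -0.29 ± 0.08 for FZD2, 0.28 ± 0.08 for DVL3, 0.24 ± 0.06 for FZD6, 0.24 ± 0.04 for CTNNB1 and 0.22 ± 0.07 for FZD7, and FZD5 had the highest FDR of the 22. With all 24 libraries in 1 fit, the calls of WNT11 (FDR 0.199), APC (0.163), DVL3 (0.237) and FZD6 (0.0872) were lost. That of WNT11 was also lost with DESeq2 (0.0555), without Tet-MIST1 Dox replicate 1 (0.0562) and without Tet-PTF1a Dox replicate 4 (0.0624). That of FZD7 was lost with the exon length trend removed (0.0519), with length and GC trends removed (0.141) and without Tet-PTF1a Dox replicate 2 (0.0514) or 4 (0.0504). That of FZD5 was lost with library size only (0.0516), with the replicate block (0.0823) and without Tet-MIST1 Control replicate 2 or 3, Tet-MIST1 Dox replicate 3 or Tet-PTF1a Control replicate 3 (0.0543 to 0.0623).

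The lines also differed in the level of these genes without Dox. With all 24 libraries scaled together, the highest Control mean was over 2-fold the lowest for 21 of the 42 genes in all 3 tables. The same share over all genes was not computed, so this count cannot be read as particular to the Wnt genes. DKK1 was at 24.4 ± 1.13 RPKM in Tet-One, 116 ± 2.84 in Tet-PTF1a and 180 ± 6.13 in Tet-MIST1 (SD, n = 4). SFRP1 was at 4.74 ± 0.157, 5.25 ± 0.349 and 20.4 ± 0.957 RPKM in the same order, and WNT5B at 6.12 ± 0.377, 7.48 ± 0.543 and 35.7 ± 1.38 RPKM. FZD4 had another order, at 1.27 ± 0.0720 RPKM in Tet-MIST1, 3.60 ± 0.134 in Tet-One and 8.84 ± 0.312 in Tet-PTF1a. CTNNB1, RYK and LRP5 lay close together in the 3 lines, CTNNB1 at 81.5, 78.5 and 83.1 RPKM in Tet-One, Tet-MIST1 and Tet-PTF1a. These levels are descriptions without a test, and clone, passage and plasmid cannot be told apart.

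**Figure D3:**
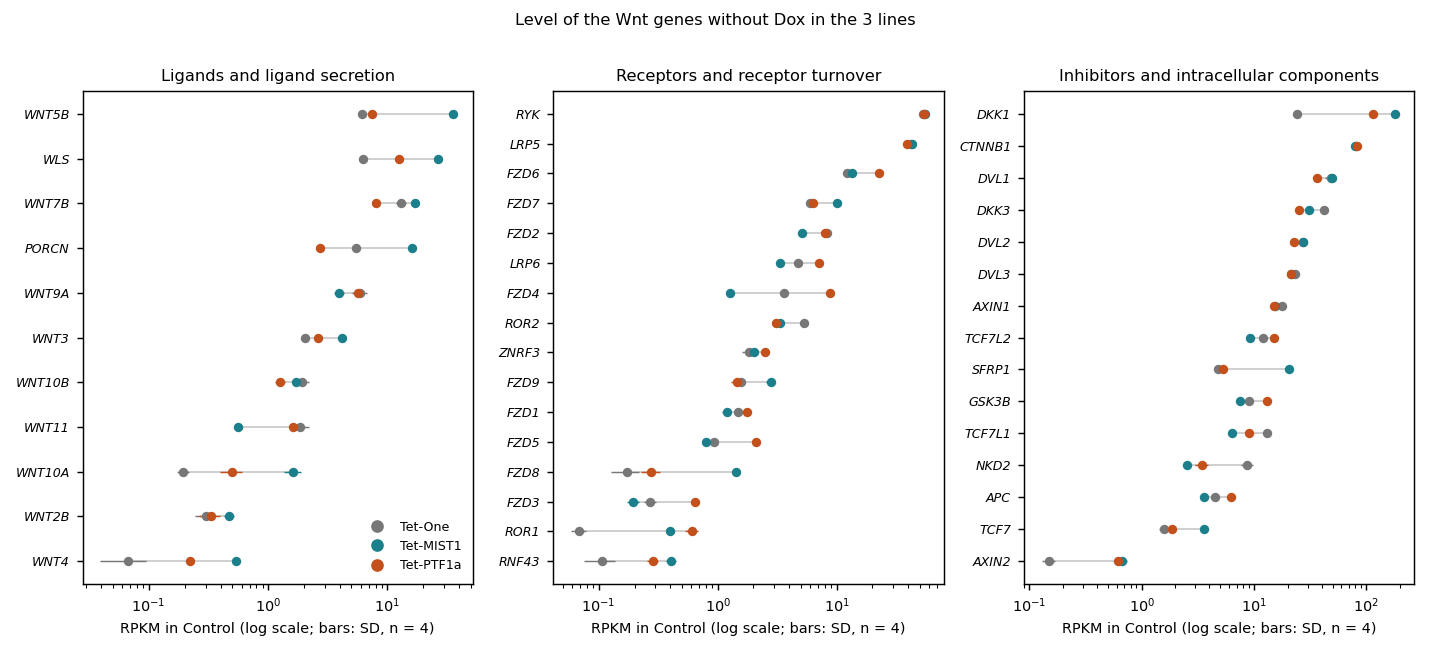
Mean RPKM (log axis, bars SD, n = 4) of the 42 Wnt genes listed in all 3 tables in the Control libraries of the 3 lines, from 1 scaling of all 24 libraries. DKK1 runs from 24.4 RPKM in Tet-One to 180 RPKM in Tet-MIST1, whereas RYK lies between 53.0 and 55.7 RPKM.

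Other genes of the pathway and beta-catenin targets were read from lists written from general knowledge. Of 54 other pathway genes tested in Tet-PTF1a, 15 were induced and 15 were repressed (median log2 fold change -0.03), and of 47 in Tet-MIST1, 5 were induced and 6 repressed (median -0.10). These counts are near the shares of all genes, which were 23.8% induced and 24.4% repressed in Tet-PTF1a and 11.9% and 8.77% in Tet-MIST1. The 3 DACT genes, whose proteins bind Dishevelled, were all called in Tet-PTF1a. DACT1 rose from 0.399 ± 0.121 to 5.20 ± 0.412 CPM (log2 fold change 3.51 ± 0.17, FDR 3.16e-24, edgeR), and DACT2 fell from 40.1 ± 1.48 to 9.82 ± 0.835 CPM (-2.03 ± 0.05, FDR 2.03e-34, edgeR). DACT3, named after its values were seen, rose from 1.23 ± 0.136 to 2.18 ± 0.234 CPM (0.79 ± 0.16, FDR 3.51e-05, edgeR). DACT1 had a Control mean below the filter of 0.5 CPM, and it was in neither of the other tables.

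Of 24 beta-catenin targets tested in Tet-PTF1a, 6 were induced and 9 were repressed (median log2 fold change -0.08), and of 21 in Tet-MIST1, 2 were induced and 1 was repressed (median -0.05), again against 23.8% and 24.4% of all genes in Tet-PTF1a and 11.9% and 8.77% in Tet-MIST1. CD44, an adhesion receptor, fell from 1474 ± 15.8 to 671 ± 4.66 CPM (-1.14), WISP2 fell from 2.07 ± 0.211 to 0.275 ± 0.0669 CPM (-2.58) and EDN1, which encodes endothelin, fell from 43.6 ± 0.334 to 21.7 ± 1.46 CPM (-1.01). NRCAM, a neuronal adhesion gene, rose from 0.182 ± 0.0734 to 1.17 ± 0.301 CPM (2.14) and the receptor tyrosine kinase EPHB3 from 2.01 ± 0.494 to 4.51 ± 0.521 CPM (1.15). NRCAM with its Control mean and WISP2 with its Dox mean were below the filter of 0.5 CPM, so that each passed through the group where it was high. Among the listed Wnt genes that are themselves used as targets, AXIN2 and ZNRF3 rose and DKK1, TCF7 and RNF43 fell. Many of these genes have other inputs.

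**Figure D4:**
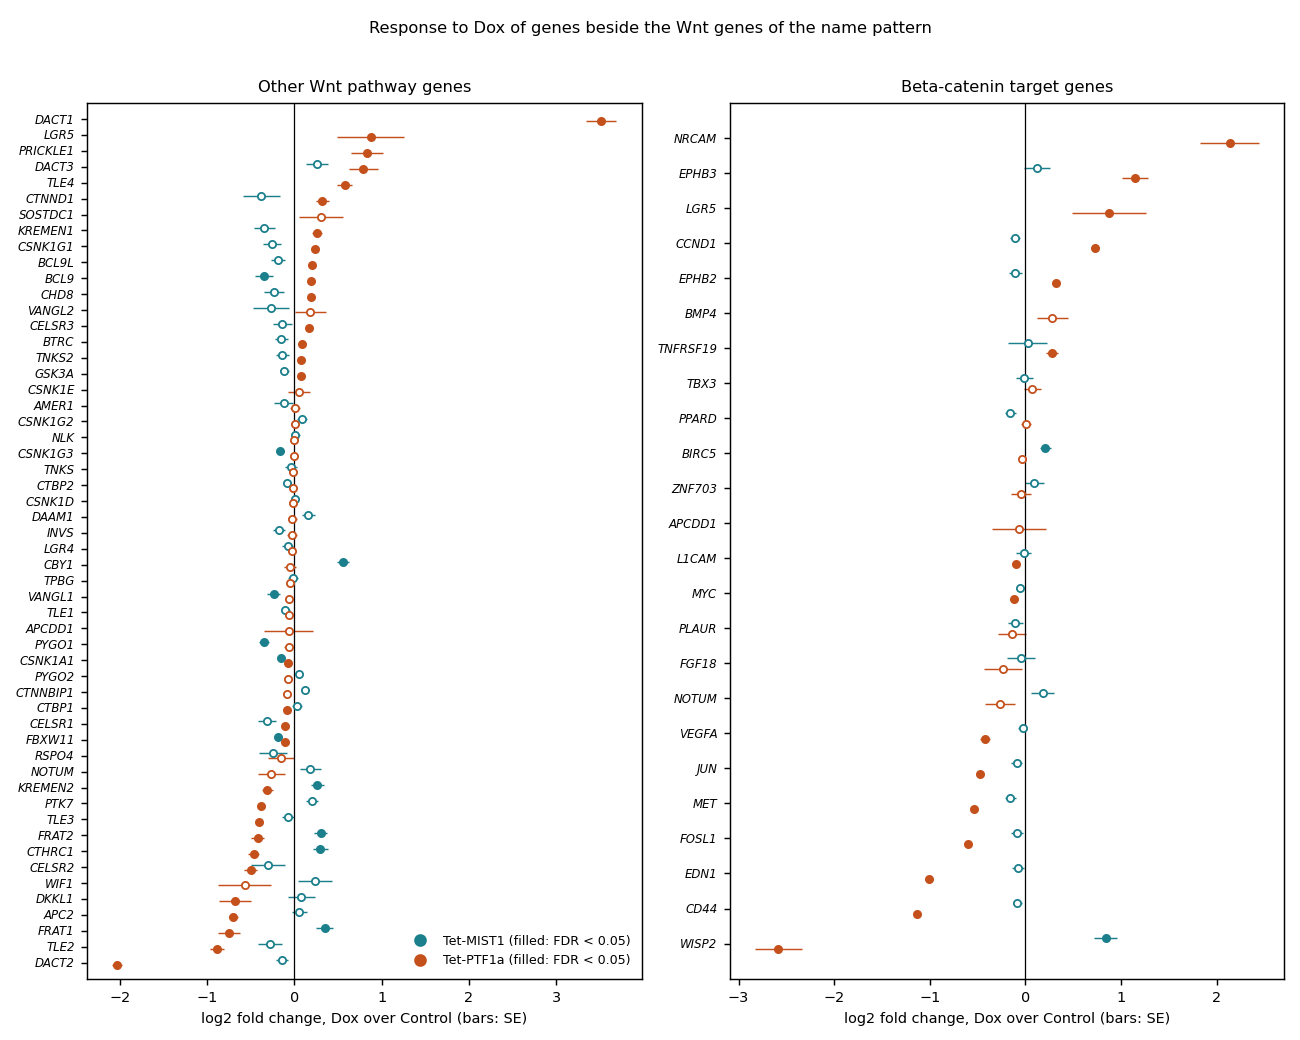
Log2 fold change (Dox over Control, with its standard error) of the other pathway genes (left) and beta-catenin targets (right) in Tet-MIST1 and Tet-PTF1a; filled points have FDR under 0.05 in edgeR. In Tet-PTF1a the pathway genes run from -2.03 (DACT2) to 3.51 (DACT1) and the targets from -2.58 (WISP2) to 2.14 (NRCAM). Of the genes called, DACT1, WISP2, NRCAM and LGR5 each had 1 group mean below the filter of 0.5 CPM.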

How the data were processed

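Per the labels and the methods, RNA was sequenced as paired-end reads and aligned to hg19 with TopHat. HTSeq, DESeq and edgeR are also named in the submitters' processing notes, without roles. The annotation and the use of strand are not given in the sources used here. The authors deposited, for each line, counts per gene without normalization after a filter (above 0.5 CPM in at least 4 samples), with CPM values and their own comparisons (log2 fold change, p-value, FDR), which were not used. The Tet-One and Tet-MIST1 tables listed the same 13878 genes, some of them below this filter within Tet-One, so their lists were not filtered line by line. The exon length in bases, another deposited column, was used for RPKM and offsets.

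For each line, the Dox and Control counts were fitted with edgeR 4.0.16 under R 4.3.3 and tested by quasi-likelihood (TMM, robust estimation, genes above 0.5 CPM in at least 4 libraries, Benjamini-Hochberg adjustment, prior count of 2), and lines by an interaction over 16 libraries. SE is the absolute log2 fold change fitted without the prior count, over the square root of F. The log2 fold changes printed beside it carry the prior count. Figures used matplotlib in Python. Library totals ran from 17210989 to 43018494. Alternatives were RLE, library size or upper quartile scaling, the Wald test of DESeq2 1.42.0, other filters and prior counts, the replicate block, all 24 libraries in 1 fit, a fold limit, exon length offsets and each library left out. Joint length and GC offsets were an alternative chosen after seeing the data. The main, RLE, DESeq2 and replicate block settings were first tested on simulated data, in each line and for the interaction of Tet-PTF1a and Tet-One. Exon length offsets were simulated in Tet-MIST1. The other alternatives and the interactions with Tet-MIST1 were not simulated, and the same dispersion was used for all lines. In the simulated data, DESeq2 called more false genes than its nominal rate, so that its counts are read as an alternative only. A limit that the self-test had set on this rate was dropped for DESeq2 after it failed. The edgeR settings that were simulated stayed within that limit.

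The genes described, the lists and the rule for named genes were chosen with earlier results of these data known. The genes named, not all with every statistic, are those with FDR under 0.05 and a log2 fold change of 0.5 or more in size in Tet-MIST1 or Tet-PTF1a and those called in an interaction, with genes of the other lists at 1 or more.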

Additional observations from a re-analysis of the deposited data

Results flagged for a closer look

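Among 160 groups of 4 libraries of the 28 genes chosen by the rule for named genes, 16 held a library whose gap to the nearest of the others exceeded Dixon's 95% limit, where chance flags about 1 in 20 groups. Of these, 7 were Tet-One Dox replicate 1, the library that stood apart over all genes. It was low for APC (28.2 CPM), DVL3 (74.3), FZD4 (18.9), LRP6 (21.5), TCF7 (4.33) and ZNRF3 (8.90) and high for DKK1 (60.5 CPM). Its deviation moved with exon length, and the part of exon length in these values was not tested.

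The other flagged values in CPM were 39.4 for DKK1 and 0.747 for WNT2B in Tet-One Control replicates 2 and 1, and 263 for CTNNB1 in Tet-MIST1 Dox replicate 4. In Tet-PTF1a they were 2.38 for AXIN2 (Control replicate 1), 94.8 for FZD6 and 7.84 for TCF7 (Control replicate 2), 26.5 for SFRP1 (Control replicate 4), 58.2 for DKK1 (Dox replicate 1) and 23.1 for ZNRF3 (Dox replicate 2).

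Responses that differed between lines in the interaction test, as differences in log2 fold change, were for Tet-MIST1 minus Tet-One -0.41 (WNT3). For Tet-PTF1a minus Tet-One they were 0.61 (WNT3), -1.05 (SFRP1), -0.28 (WLS), -0.49 (DKK3), -0.54 (FZD4), -2.11 (DKK1), -0.36 (FZD2), 1.15 (WNT9A), -0.97 (WNT5B), 0.53 (FZD3) and -0.51 (DVL1). For Tet-PTF1a minus Tet-MIST1 they were 1.02 (WNT3), 0.77 (ROR1), 0.54 (WNT11), -0.34 (FZD5), 0.22 (FZD7), -0.88 (SFRP1), 0.24 (FZD6), 0.49 (ZNRF3), 0.24 (CTNNB1), 0.38 (APC), -0.90 (RNF43), -0.45 (DKK3), 0.73 (LRP6), -0.70 (FZD4), -2.07 (DKK1), -0.30 (DVL2), 0.47 (AXIN2), -0.29 (FZD2), 1.11 (WNT9A), -0.91 (WNT5B), -0.30 (DVL1) and 0.28 (DVL3).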

How the results depend on the processing

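No direction reversed in any alternative run. With a limit of 1 on the size of the log2 fold change, the Wnt genes called were 3 induced and 2 repressed in Tet-PTF1a and 0 and 0 in Tet-MIST1. With all 24 libraries in 1 fit they were 7 induced in Tet-PTF1a and 8 repressed in Tet-MIST1, and the responses that differed were 2 between Tet-MIST1 and Tet-One and 18 between Tet-PTF1a and Tet-One. SFRP4 and SFRP5 could not enter that fit. The induced count of Tet-MIST1 was 0 with library size only and 2 with exon length or exon length and GC trends removed, where the Tet-MIST1 against Tet-One count was also 2, and the latter was 3 with DESeq2. The cause of these shifts was not tested.

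Replicate numbers did not pair the samples (correlations of same-numbered deviations from -0.24 to 0.18). With the replicate block, Tet-MIST1 had 0 induced and 4 repressed genes and 0 differed from Tet-One, and the calls of WNT2B in Tet-PTF1a (FDR 0.0554 in edgeR), of WLS against Tet-One and of FZD5 against Tet-MIST1 were lost.

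Leaving out each library in turn gave 11 to 12 induced and 13 to 15 repressed genes in Tet-PTF1a, 0 to 2 induced and 5 to 15 repressed in Tet-MIST1, and 0 and 0 in Tet-One. Responses that differed numbered 0 to 5 (Tet-MIST1 against Tet-One), 10 to 19 (Tet-PTF1a against Tet-One) and 20 to 24 (Tet-PTF1a against Tet-MIST1). Of the 1215 values of single genes under an alternative, 1174 kept direction and call and 41 lost the call. Depth limits the genes under about 2 CPM, such as WNT2B, WNT11 and RNF43.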
